A study of Rattus norvegicus with 28 samples.

Results

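The kidney expression of 10 genes of growth hormone, insulin-like growth factor (IGF) and insulin signalling was followed in rats: Igf1, Ghr, Igf1r, Igfbp1, Igfbp3, Cish, Socs2, Socs3, Irs1 and Irs2. They were chosen by name, with earlier results of these data known, so their counts against all probe sets are a description. All 10 were found in the platform's gene annotation, among the 14217 genes with a symbol there, with 16 probe sets among 31042, and each was read from its probe set of highest mean over the 28 arrays. A probe set is a group of short array probes against 1 transcript. Values are the deposited log2 values, on which a difference of 1 is a doubling of signal.

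The arrays held total RNA of kidneys from female rats of the SBH/y and SBN/y strains, the Sabra strains bred for and against salt-sensitive hypertension; the series addressed the pathophysiology of proteinuria. There were 4 groups of 7 arrays: SBH/y after removal of 1 kidney (uninephrectomy), SBH/y with 2 kidneys after a sham operation, SBN/y after uninephrectomy, and SBN/y with 2 kidneys after a sham operation. All rats were 5 months old, 4 months after the operation, and ate standard chow freely. Nothing in the labels said whether the 7 arrays of a group were 7 animals, so p-values measure the spread between these arrays.

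Growth hormone acts through its receptor, the kinase JAK2 and the transcription factor STAT5, which switches on Igf1 and the feedback inhibitors of the CIS/SOCS family. IGF-1 in turn signals through the IGF-1 receptor, whose signal, like that of insulin, is passed on by the IRS adaptor proteins to PI3 kinase, AKT and FOXO factors. IGF binding proteins hold IGF-1 in blood and tissue and set how much of it reaches the receptor. In kidney the growth hormone and IGF axis is known for its link to renal growth and filtration.

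The array medians lay between 5.72 and 5.77, and arrays correlated with each other at 0.985 to 0.997. All 10 proximal tubule and all 6 thick ascending limb markers lay above the lowest array median, as kidney tissue would give, while 4 of 5 hepatocyte markers (Apoa1, Fgb, Serpina1 and Ttr) and 3 of 6 adipose markers lay below it. A pair of array features touch the results below. A score over 12 circadian clock genes, positive where Bmal1, Npas2 and Clock are high, was below -0.5 in 6 of 7 SBH/y arrays after uninephrectomy, in 0 of 7 SBH/y arrays with 2 kidneys, in 1 of 7 SBN/y arrays after uninephrectomy and in 0 of 7 SBN/y arrays with 2 kidneys. No source used here gave the hour at which kidneys were taken. The mean log2 level of 16 macrophage markers ran from 7.13 to 7.47 in uninephrectomized SBH/y kidneys, from 7.06 to 7.39 in SBH/y with 2 kidneys, from 6.80 to 6.98 in uninephrectomized SBN/y kidneys and from 6.73 to 7.02 in SBN/y with 2 kidneys. Of these 16 markers, 12 were higher and 2 lower in SBH/y after uninephrectomy, and 10 were higher and 2 lower in SBH/y with 2 kidneys; Cd163, Itgam, Itgax and Mrc1 lay below the lowest array median. With the same number of kidneys, the macrophage levels of the strains did not overlap. Fits with this level as a covariate therefore cannot separate it from a strain difference, whether a call is kept or lost. In whole kidney, more cells of a type and more RNA per cell cannot be told apart.

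Each comparison was tested with limma over all 31042 probe sets, with Benjamini-Hochberg adjusted p under 0.05 as the threshold. The shares of all probe sets given below also count dim, second and unnamed probe sets. The 10 genes were each read from their brightest, so the 2 are not like for like. After uninephrectomy in SBH/y, 2 of the 10 genes passed, Igf1r higher and Igfbp3 lower, against 8.24% of all probe sets (3.33% higher and 4.91% lower). After uninephrectomy in SBN/y, 2 of 10 passed, Cish and Irs2, both higher, against 0.464% of all probe sets in either direction and 0.222% higher. Between the strains after uninephrectomy, 3 of 10 passed, Igf1 and Igfbp1 higher and Igfbp3 lower in SBH/y, against 21.5% of all probe sets (11.1% higher and 10.3% lower). Between the strains with 2 kidneys, 4 of 10 passed, Igf1, Cish, Irs2 and Igfbp1, all higher in SBH/y, against 17.9% in either direction and 9.64% higher. The effect of uninephrectomy differed between the strains for 1 of 10, Igfbp3, downwards, against 1.41% of all probe sets in either direction and 0.818% downwards. The median log2 difference over the 10 genes was 0.09 for uninephrectomy in SBH/y, 0.02 for uninephrectomy in SBN/y, 0.07 for strain after uninephrectomy and 0.12 for strain with 2 kidneys. Over all probe sets these medians lay between -0.02 and 0.01.

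**Figure D1:**
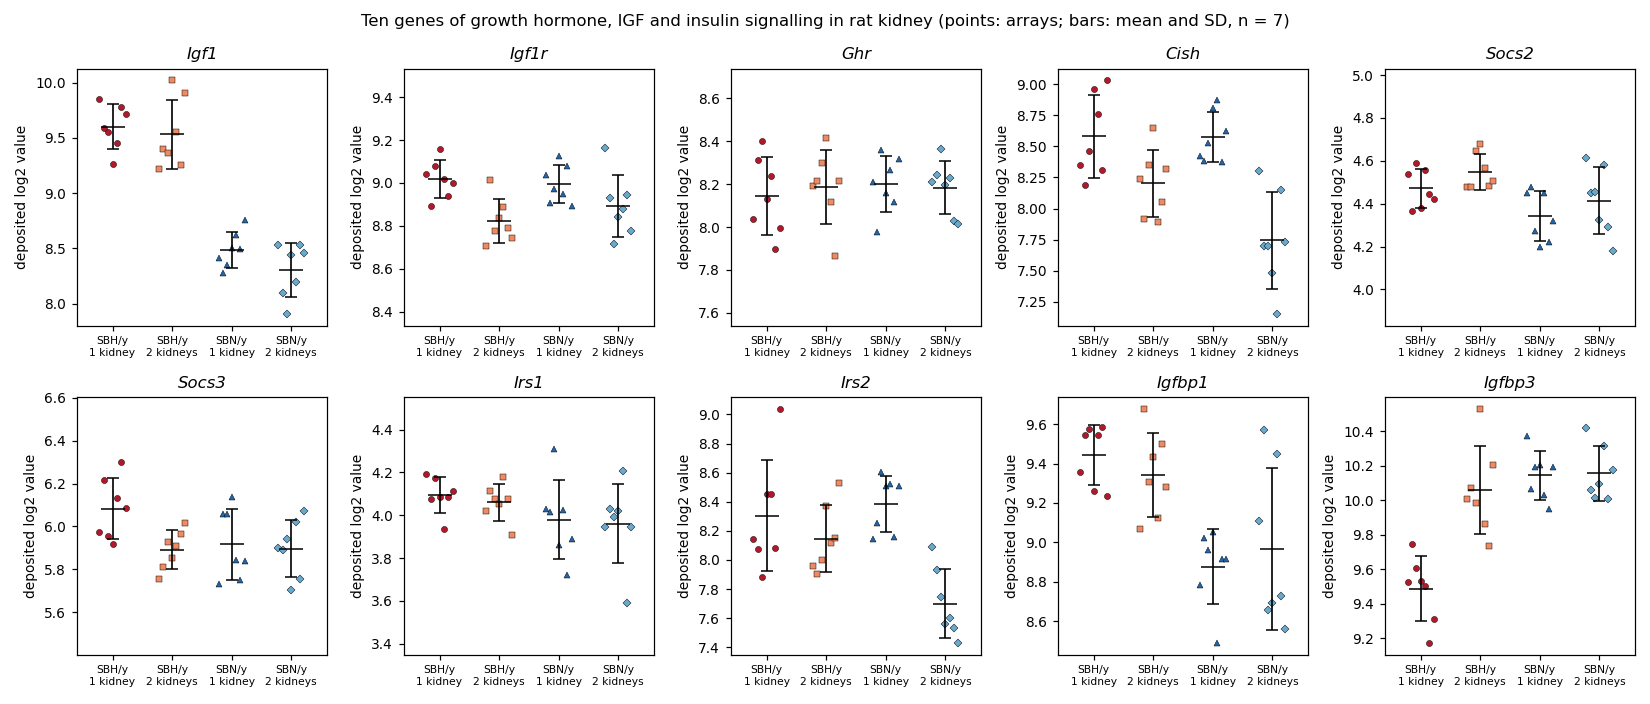
Deposited log2 value of the 10 genes (vertical axis, 1 panel per gene) in the 4 groups, with 1 point per array and bars for the mean and SD (n = 7). Igf1 is split by strain, Cish and Irs2 are lowest in SBN/y kidneys with 2 kidneys, and Igfbp3 is lowest in uninephrectomized SBH/y kidneys.

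**Figure D2:**
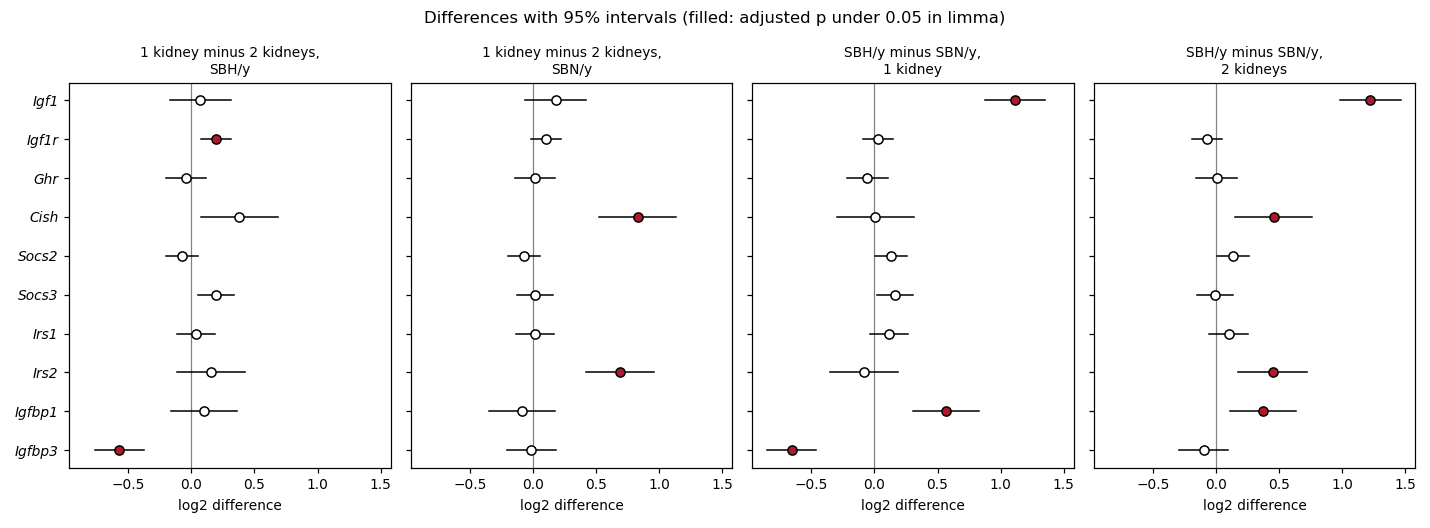
Log2 difference (horizontal axis) of each gene in the 4 comparisons, with its 95% confidence interval and filled red where the adjusted p is under 0.05. The Igf1 strain differences of 1.11 and 1.22 exceed those of the other 9 genes.

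Igf1, the hormone that carries much of the growth effect of growth hormone, was higher in SBH/y kidneys whether 1 or 2 kidneys were present, and uninephrectomy did not move it past the threshold in either strain. In uninephrectomized SBH/y kidneys its lowest, median and highest values were 9.27, 9.59 and 9.85, against 8.28, 8.49 and 8.75 in uninephrectomized SBN/y kidneys. With 2 kidneys they were 9.22, 9.40 and 10.02 in SBH/y, against 7.90, 8.44 and 8.53 in SBN/y. Every SBH/y array lay above every SBN/y array. The strain difference was 1.11 ± 0.12 (log2, SE) after uninephrectomy, a 2.17-fold difference (limma, adjusted p = 8.51e-09). With 2 kidneys it was 1.22 ± 0.12, or 2.34-fold (limma, adjusted p = 1.51e-09). The other 2 probe sets of Igf1 gave 0.87 and 0.79 after uninephrectomy and 1.01 and 0.85 with 2 kidneys, all past the threshold and none with overlapping groups. Uninephrectomy gave 0.07 (95% interval -0.17 to 0.31) in SBH/y and 0.18 (-0.06 to 0.42) in SBN/y. With the macrophage marker level as a covariate the strain differences were 0.93 (limma, adjusted p = 0.027) after uninephrectomy and 1.09 (0.000209) with 2 kidneys.

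**Figure D3:**
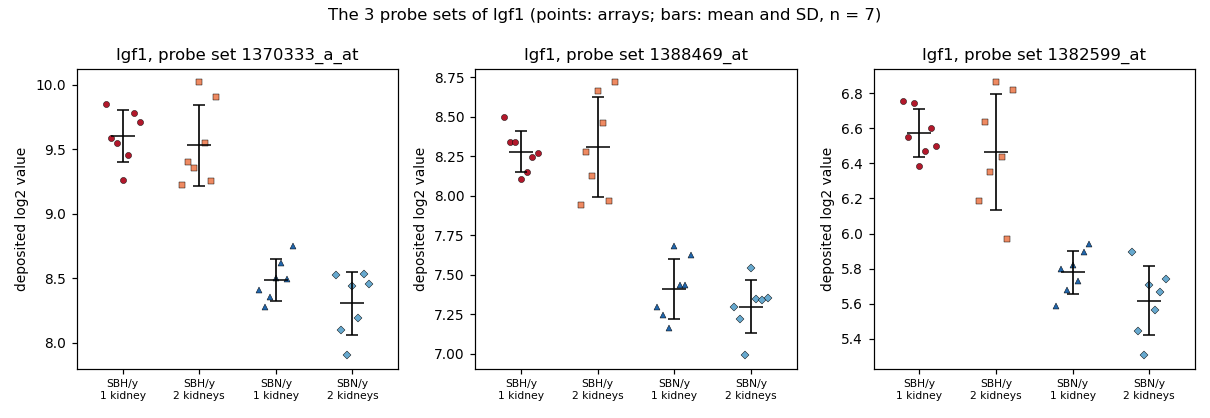
Deposited log2 value of the 3 Igf1 probe sets (1 panel each) in the 4 groups of 7 arrays, with points for arrays and bars for mean and SD. In each panel all 14 SBH/y arrays lie above all 14 SBN/y arrays.

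Igf1r, the receptor through which IGF-1 signals, was slightly higher after uninephrectomy in SBH/y. Its lowest, median and highest values were 8.89, 9.02 and 9.16 in uninephrectomized SBH/y kidneys, against 8.70, 8.79 and 9.01 in SBH/y with 2 kidneys, and the groups overlapped. The difference was 0.20 ± 0.06, or 1.15-fold (limma, adjusted p = 0.0323). The second Igf1r probe set gave 0.12 and did not pass (0.23), and in SBN/y the first gave 0.10 ± 0.06 (0.685). The SBH/y call was lost with the clock gene score (0.13, adjusted p = 0.808) or the macrophage level (0.15, 0.235) as a covariate. It was also lost when any 1 of SBH/y arrays 1, 3 and 4 after uninephrectomy or 1, 3 and 7 with 2 kidneys was left out (adjusted p up to 0.0805).

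Ghr, the growth hormone receptor, passed in none of the comparisons by its brighter probe set. Group means were 8.14 ± 0.18 in uninephrectomized SBH/y, 8.19 ± 0.17 in SBH/y with 2 kidneys, 8.20 ± 0.13 in uninephrectomized SBN/y and 8.18 ± 0.12 in SBN/y with 2 kidneys (SD, n = 7 each). The strain difference with 2 kidneys was 0.00, with a 95% interval of -0.16 to 0.17. The second Ghr probe set disagreed there, with a mean of 8.15 in SBH/y and 7.81 in SBN/y and a difference of 0.35 ± 0.09 (limma, adjusted p = 0.00442). Its difference after uninephrectomy was 0.18 ± 0.09 and did not pass (0.15).

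Igfbp1, an IGF binding protein whose liver transcript insulin represses, was higher in SBH/y. Its lowest, median and highest values were 9.24, 9.54 and 9.58 in uninephrectomized SBH/y kidneys, against 8.49, 8.92 and 9.05 in uninephrectomized SBN/y kidneys, with no overlap. The difference was 0.57 ± 0.13, or 1.48-fold (limma, adjusted p = 0.00121). With 2 kidneys the values were 9.07, 9.31 and 9.68 in SBH/y, against 8.56, 8.73 and 9.57 in SBN/y, and here the groups overlapped. That difference was 0.37 ± 0.13 (limma, adjusted p = 0.0392), and it was lost in 6 of 11 alternatives and without any 1 of 8 arrays (SBN/y 3, 4, 6 and 7, SBH/y 2, 3, 4 and 6, all with 2 kidneys; adjusted p up to 0.108). The macrophage marker level moved with the strains too, without overlap, so a fit with it cannot separate it from strain. With it as a covariate the Igfbp1 differences were -0.08 (limma, adjusted p = 0.943) after uninephrectomy and -0.07 (0.913) with 2 kidneys. Uninephrectomy changed Igfbp1 by 0.10 ± 0.13 in SBH/y and -0.09 ± 0.13 in SBN/y, neither past the threshold.

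Igfbp3, which binds most IGF-1 in blood, fell after uninephrectomy in SBH/y. In the rat assembly GRCr8 it lies next to Igfbp1 on chromosome 14, with 0 annotated genes starting between them. Its lowest, median and highest values were 9.17, 9.53 and 9.74 in uninephrectomized SBH/y kidneys, against 9.74, 10.01 and 10.53 in SBH/y with 2 kidneys; the highest of the first group just exceeded the lowest of the second. In SBN/y they were 9.95, 10.19 and 10.38 after uninephrectomy, against 10.01, 10.09 and 10.42 with 2 kidneys, and those groups overlapped almost wholly. The uninephrectomy difference was -0.57 ± 0.10 in SBH/y (limma, adjusted p = 0.000176) and -0.01 ± 0.10 in SBN/y (0.992). The difference between those effects was -0.56 ± 0.14 (limma, adjusted p = 0.0284). After uninephrectomy Igfbp3 was lower in SBH/y than in SBN/y by -0.66 ± 0.10 (limma, adjusted p = 3.1e-06), with no overlap, while with 2 kidneys the strain difference was -0.10 (95% interval -0.29 to 0.10). The second Igfbp3 probe set gave -0.64 for uninephrectomy in SBH/y (4.38e-06, no overlap), -0.59 for strain after uninephrectomy (1.12e-06) and -0.56 for the difference between effects (0.00855).

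The clock gene score and Igfbp3 were both low in most uninephrectomized SBH/y arrays, but not on every array. The single array of that group with a positive score, array 2 at 0.59, had the group's highest Igfbp3, 9.74, while the other 6 had scores from -1.23 to -0.82 and Igfbp3 from 9.17 to 9.61. By the second Igfbp3 probe set array 2 was at 9.06, below all 7 SBH/y arrays with 2 kidneys (lowest 9.22). The uninephrectomized SBN/y array 6, with a score of -0.89, had an Igfbp3 of 9.95, the lowest of its group but above all 7 uninephrectomized SBH/y arrays. With the score as a covariate, Igfbp3 gave -0.38 for uninephrectomy in SBH/y (limma, adjusted p = 0.357), -0.35 for the difference between effects (1) and -0.51 for strain after uninephrectomy (0.00372). The second probe set gave -0.57 (limma, adjusted p = 0.0327), -0.48 (0.725) and -0.53 (0.000696) in that fit. No probe set on the array passed there for the difference between effects. Without the 7 uninephrectomized arrays of low score, a choice made after seeing the data, the differences of the first probe set were -0.31, -0.33 and -0.43. That choice left 1 uninephrectomized SBH/y array, whose spread was taken from the other groups, so its p-values say nothing about the calls. By the first probe set the difference between effects also missed the threshold with the macrophage level as a covariate (-0.58, limma, adjusted p = 0.0731). The second gave -0.53 in that fit and just passed (0.0497). For strain after uninephrectomy the first gave -0.74 and passed (0.033), while the second gave -0.50 and did not (0.112). The first probe set's difference between effects also missed the threshold without any 1 of 6 arrays (adjusted p up to 0.0555). These were uninephrectomized SBH/y 6 and 7, SBH/y with 2 kidneys 7, uninephrectomized SBN/y 1, and SBN/y with 2 kidneys 3 and 6. Endothelial markers ran partly the same way. Of 7 measured, 3 were lower after uninephrectomy in SBH/y, against 4.91% of all probe sets. After uninephrectomy 6 were lower in SBH/y than in SBN/y, against 10.3% of all probe sets. With 2 kidneys, where the Igfbp3 strain difference of -0.10 did not pass, 2 endothelial markers were lower in SBH/y, against 8.31% of all probe sets. Their mean log2 level ran from 8.47 to 8.78 in uninephrectomized SBH/y, from 8.65 to 8.88 in SBH/y with 2 kidneys, from 8.84 to 8.98 in uninephrectomized SBN/y and from 8.84 to 9.08 in SBN/y with 2 kidneys. The part of endothelial cells in the Igfbp3 difference was not tested.

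**Figure D4:**
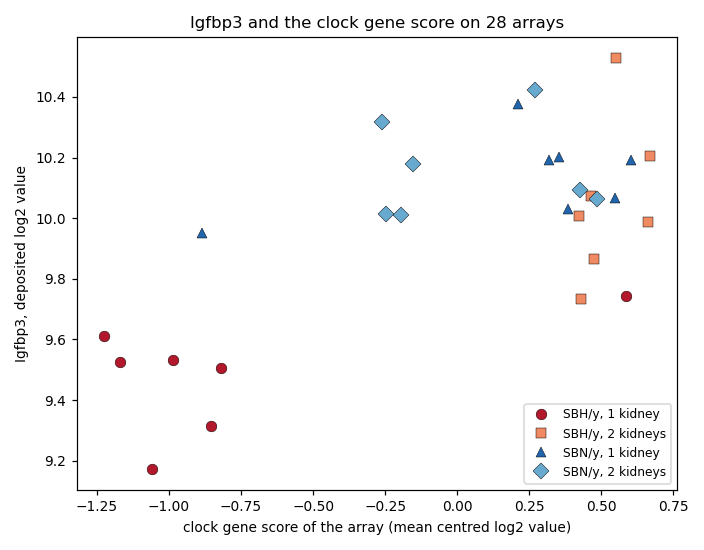
Igfbp3 (vertical axis, deposited log2 value) against the clock gene score (horizontal axis) of the 28 arrays, marked by group. The 6 uninephrectomized SBH/y arrays with scores under -0.5 have low Igfbp3, and the remaining array of that group, at 0.59, has the group's highest value, 9.74; the uninephrectomized SBN/y array at -0.89 lies at 9.95.

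Cish, the feedback inhibitor CIS that growth hormone and other cytokines induce through STAT5, rose after uninephrectomy in SBN/y. The window from 250 bases before to 50 bases after its start in RefSeq (GRCr8, chr8:116850719-116851018, plus strand) is shown because it holds 4 copies of TTCNNNGAA, the letters of the STAT5 and STAT3 palindrome, printed in capitals, searched on both strands.

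Cish promoter window: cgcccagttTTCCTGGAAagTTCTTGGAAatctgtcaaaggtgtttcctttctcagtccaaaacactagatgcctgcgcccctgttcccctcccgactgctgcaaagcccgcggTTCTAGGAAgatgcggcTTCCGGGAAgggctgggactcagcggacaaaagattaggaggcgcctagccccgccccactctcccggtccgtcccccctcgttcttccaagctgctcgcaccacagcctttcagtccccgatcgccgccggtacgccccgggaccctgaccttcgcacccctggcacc

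The matches start 241, 230, 136 and 119 bases before the gene's start. Among 33469 windows of this length, 8.87% hold at least 1 match and 0.0239% hold 3 or more. Of the 8 genes with a window (Socs2 and Irs2 had none), Cish alone held a match. The forkhead letters TGTTTAC or TGTTTGC were in 0 of the 8 and in 8.43% of all windows. Only these exact letters were searched, so forkhead sites spelled otherwise were not counted. The windows of Ghr, Igf1 and Socs3 lay inside the annotated span of their gene.

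The lowest, median and highest Cish values were 8.38, 8.53 and 8.87 in uninephrectomized SBN/y kidneys, against 7.15, 7.70 and 8.30 in SBN/y with 2 kidneys, with no overlap. In SBH/y they were 8.19, 8.46 and 9.03 after uninephrectomy, against 7.90, 8.24 and 8.65 with 2 kidneys, with overlap. The difference in SBN/y was 0.83 ± 0.15, or 1.78-fold (limma, adjusted p = 0.00786). In SBH/y it was 0.38 ± 0.15 and did not pass (0.122). The effects differed by -0.45 ± 0.21 between strains, which did not pass either (limma, adjusted p = 0.389). With 2 kidneys Cish was higher in SBH/y by 0.46 ± 0.15 (limma, adjusted p = 0.0291), and after uninephrectomy the strains differed by 0.01 (95% interval -0.30 to 0.31). The uninephrectomy call in SBN/y and the strain call with 2 kidneys share the SBN/y arrays with 2 kidneys, the group in which Cish was lowest. The second Cish probe set gave 0.79 for uninephrectomy in SBN/y (limma, adjusted p = 0.0115, no overlap) and 0.64 for strain with 2 kidneys (0.00214). Without any 1 of SBN/y arrays 4 and 5 and SBH/y arrays 3, 4 and 7, all with 2 kidneys, the strain difference of the first was lost (adjusted p up to 0.0879), and with the macrophage marker level as a covariate it was 0.32 (0.582). With the clock gene score it was 0.46 (0.0563).

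Socs3, the feedback inhibitor of signalling through STAT3, passed in none of the comparisons. Its means were 6.08 ± 0.14 in uninephrectomized SBH/y, 5.89 ± 0.09 in SBH/y with 2 kidneys, 5.92 ± 0.16 in uninephrectomized SBN/y and 5.90 ± 0.13 in SBN/y with 2 kidneys (SD, n = 7 each). The SBH/y uninephrectomy difference was 0.19 ± 0.07 (limma, adjusted p = 0.0904). The strain difference after uninephrectomy was 0.17 ± 0.07 (0.0949), and without SBN/y uninephrectomized array 4 it was 0.20 (0.0374). Socs2, the regulator whose loss gives overgrown mice, had group means from 4.34 to 4.55, below the lowest array median on all 28 arrays, and passed in none of the comparisons.

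Irs2, an adaptor of the insulin and IGF-1 receptors that FOXO factors induce in liver, also rose after uninephrectomy in SBN/y. Its lowest, median and highest values were 8.14, 8.51 and 8.60 in uninephrectomized SBN/y kidneys, against 7.43, 7.60 and 8.09 in SBN/y with 2 kidneys, with no overlap. In SBH/y they were 7.89, 8.15 and 9.04 after uninephrectomy, against 7.91, 8.12 and 8.53 with 2 kidneys, with overlap. The SBN/y difference was 0.69 ± 0.13, or 1.61-fold (limma, adjusted p = 0.0135), and the SBH/y difference was 0.16 ± 0.13 (0.542). The effects differed by -0.53 ± 0.19, which did not pass (limma, adjusted p = 0.184) but did without uninephrectomized SBH/y array 7 (-0.65, adjusted p = 0.0369). With 2 kidneys Irs2 was higher in SBH/y by 0.45 ± 0.13 (limma, adjusted p = 0.0153), against 0.24 (0.662) with the macrophage marker level and 0.39 (0.0649) with the clock gene score as a covariate. Irs1, the other main adaptor, had group means from 3.96 to 4.09, below the lowest array median on all 28 arrays, and passed in none of the comparisons.

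Cish and Irs2 also varied together among arrays of the same group. With group means removed, Pearson's r over the 28 arrays was 0.63 (permutation within groups, two-sided, 100000 draws, p = 0.00087, adjusted 0.013 over 15 pairs). Spearman's rho was 0.59 (permutation p = 0.00308, adjusted 0.0462). Without the 2 arrays farthest from the median of Cish, r was 0.61. Within groups r was 0.84 in uninephrectomized SBH/y, 0.52 in SBH/y with 2 kidneys, 0.74 in uninephrectomized SBN/y and 0.44 in SBN/y with 2 kidneys. Of the 15 pairs among the 6 genes that passed in any comparison, only this pair had an adjusted p under the threshold.

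Beyond the 10 genes, 90 measured genes of the pathway were counted in 5 lists, each gene by its brightest probe set. After uninephrectomy in SBH/y, 5 were higher and 6 lower (12.2% against 8.24% of all probe sets), with a median log2 difference of -0.01 against 0.01. After uninephrectomy in SBN/y, 0 of 90 passed in limma, the only tool run, against 0.464% of all probe sets. Of the 90, 13 had an unadjusted p under 0.05. The share of all probe sets at that looser threshold was not counted, so nothing is read from the 13. Between the strains 13 were higher and 15 lower in SBH/y after uninephrectomy (31.1% against 21.5%), and 10 were higher and 13 lower with 2 kidneys (25.6% against 17.9%). Bright probe sets passed more often than dim ones. Without the dimmest 40%, 6137 probe sets passed for strain after uninephrectomy, against 6663 among all. The shares of the 5 lists are therefore no measure of an excess. The list medians were 0.00 and 0.01.

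Among the 12 other ligands and binding proteins, Igfbp4, Igfbp6 and Igfals rose after uninephrectomy in SBH/y and 0 fell, against 3.33% higher and 4.91% lower among all probe sets. Igfbp4, a binding protein that withholds IGF-1 from its receptor, had a mean of 8.77 ± 0.17 in uninephrectomized SBH/y kidneys, against 8.31 ± 0.12 in SBH/y with 2 kidneys (SD, n = 7 each), a difference of 0.46 (limma, adjusted p = 0.000236). Igfals, the acid-labile subunit that joins IGF-1 and Igfbp3 in the large complex of blood, differed by 0.33 (0.0209). Igfbp2 was higher in SBH/y by 0.67 after uninephrectomy and 0.71 with 2 kidneys (limma, adjusted p = 3.05e-12 and 8.68e-13). Its means were 8.68 and 8.69 in SBH/y, against 8.01 and 7.98 in SBN/y.

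Among 9 other receptors, 3 were higher and 2 lower in SBH/y than in SBN/y after uninephrectomy, against 11.1% higher and 10.3% lower among all probe sets. Insr, the insulin receptor, was lower by -0.67 there (limma, adjusted p = 0.000229), while its second probe set gave -0.19 (0.168). With 2 kidneys the first gave -0.35 and did not pass (limma, adjusted p = 0.0611), while the second gave -0.44 and passed (0.000879). Among 20 JAK, STAT and SOCS genes, 1 passed after uninephrectomy in SBH/y, or 5% against 8.24% of all probe sets. Between the strains after uninephrectomy, 4 were higher and 3 lower in SBH/y, or 35% against 21.5% of all probe sets. Jak2 rose after uninephrectomy in SBH/y by 0.53 (limma, adjusted p = 0.0206) and was 0.58 above SBN/y after uninephrectomy (0.00341). Stat5b was higher in SBH/y after uninephrectomy by 0.44 (limma, adjusted p = 0.00453), and Stat5a by 0.22, which did not pass (0.273). Stat3 was lower in SBH/y by -1.02 and -1.07 by its brighter probe set, but its second probe set gave 0.12 and 0.15, neither past the threshold, so its probe sets disagree.

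Among 29 other adaptors and kinases, Irs3, Deptor and Rps6kb1 fell after uninephrectomy in SBH/y and 0 rose. That is 10.3% of the list, close to the 8.24% of all probe sets. Irs3 had a mean of 4.18 ± 0.22 in uninephrectomized SBH/y kidneys, against 4.67 ± 0.11 in SBH/y with 2 kidneys, a difference of -0.49 (limma, adjusted p = 0.00114). With the clock gene score as a covariate Irs3 gave -0.23 (limma, adjusted p = 0.722) and Deptor -0.12 (0.639). Gadd45a, named below, gave -0.07 (0.91). Over all probe sets 73 passed in that fit, against 2558 without the score. Pdk4, Klf15, Igfbp4 and Jak2 were not read in it. Among 20 FOXO and insulin targets, Klf15 rose and Pdk4, Gadd45a and Ppargc1a fell after uninephrectomy in SBH/y, against 3.33% higher and 4.91% lower among all probe sets. The other Klf15 probe sets gave 0.20 (limma, adjusted p = 0.0904) and -0.02 (0.882) and did not pass. Those of Ppargc1a gave -0.12 (0.216) and -0.38 (0.0274), and only the latter passed. The second Pdk4 probe set gave -0.65 and passed (0.00361). Pdk4, the kinase that shuts off pyruvate oxidation in fasting, had means of 7.99 ± 0.60 in uninephrectomized SBH/y and 8.95 ± 0.38 in SBH/y with 2 kidneys. The difference was -0.96 (limma, adjusted p = 0.00294). With 2 kidneys Pdk4 was 1.46 higher in SBH/y than in SBN/y (limma, adjusted p = 3.14e-06). Slc2a2, the glucose transporter GLUT2, was higher in SBH/y by 0.86 after uninephrectomy and 0.50 with 2 kidneys (limma, adjusted p = 1.1e-08 and 0.000113). Pck1, the gluconeogenic enzyme that insulin represses, was lower in SBH/y after uninephrectomy by -0.12 (0.0361), and Foxo1 itself differed by 0.00 (0.982).

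The genes whose values most resembled each of the 6 genes over the 28 arrays, after removal of group means, are given as a description. For Cish these were Foxq1 (r = 0.75), Errfi1 (0.71) and Myb (0.70). For Irs2 they were Ostm1 (0.71), Myb (0.68) and Cenpq (0.67). For Igf1 they were Uhrf2 (0.70), Vom2r31 (0.65) and Lipc (0.64), and for Igf1r Usp7 (0.78), Ptp4a2 (0.76) and Zmpste24 (0.76). For Igfbp1 they were Aldh1a3 (0.73), Hbp1 (0.72) and Rims2 (0.71), and for Igfbp3 Wdr20 (0.79), Alg1 (0.78) and Ubap1 (0.78). Of these similar genes, Myb, Cenpq, Vom2r31, Lipc and Rims2 had mean values from 3.14 to 4.36, below the lowest array median.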

How the data were processed

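Total RNA of 28 kidney samples was hybridised to 1-colour Affymetrix arrays. The authors deposited 1 table of log2 values; per the submitters' processing notes GCOS and RMA were used, with no version or role stated. No genome build is given in the sources used here. Columns were matched to samples by the sample identifiers in the table header. After 57 control probe sets were left out, 31042 remained, of which 20826 carry 1 gene symbol, 436 several and 9780 none; 20758 symbols matched RefSeq (GRCr8) by gene ID. Limma (3.58.1, R 4.3.3) was fitted with 1 mean per group over all 28 arrays and no further filter, with Benjamini-Hochberg adjustment at 0.05; it was tested on simulated data.

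The members, lists and alternatives were chosen with earlier results of these data known. Named genes are all 10 members, pathway partners, and the up to 6 pathway genes of smallest p in each comparison; Igfbp6, Rps6kb1 and the marker genes were named after their values were seen. The clock gene score is the mean of centred Bmal1, Npas2, Clock and sign-turned Per1, Per2, Per3, Nr1d1, Nr1d2, Dbp, Tef, Hlf and Bhlhe41. Alternatives were another normalization, centring, a filter on the dimmest 40% of probe sets, another variance model, array weights, the compared groups alone, replicate number as a block, the mean of a gene's probe sets, the clock and macrophage scores as covariates, leaving out each array, and leaving out 7 arrays. The number of arrays limits the precision.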

Additional observations from a re-analysis of the deposited data

Results flagged for a closer look

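For 5 genes the uninephrectomy effect differed between SBH/y and SBN/y by a tested interaction (limma, adjusted over all probe sets). Igfbp3 differed by -0.56 (adjusted p = 0.0284), with effects of -0.57 in SBH/y and -0.01 in SBN/y. Igf2r, the receptor that clears IGF-2, differed by 0.35 (0.0475), with 0.15 in SBH/y and -0.20 in SBN/y, neither past the threshold alone; its second probe set gave 0.27 and did not pass (0.296). The adaptor Irs3 differed by -0.60 (0.02), with -0.49 in SBH/y and 0.11 in SBN/y, at levels below the lowest array median. Deptor, an inhibitor of mTOR, differed by -0.24 (0.0283), with -0.17 in SBH/y and 0.07 in SBN/y; its second probe set gave -0.34 and did not pass (0.325). Gadd45a, a stress gene, differed by -0.36 (0.0498), with -0.37 in SBH/y and -0.01 in SBN/y. The clock gene score was low in 6 of 7 uninephrectomized SBH/y arrays, and with it as a covariate none of the 5 passed. No probe set on the array passed for the interaction in that fit, so the lost calls are not particular to these genes. The differences were then -0.35 for Igfbp3 (limma, adjusted p = 1), 0.25 for Igf2r (1) and -0.31 for Irs3 (1). Deptor gave -0.19 (0.957) and Gadd45a -0.02 (1). By these probe sets Deptor alone had an unadjusted p under 0.05. The second Igfbp3 probe set gave -0.48, with an unadjusted p of 0.0044 (limma, adjusted p = 0.725).

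Irs1 had 1 array apart from its group: SBN/y with 2 kidneys, array 6, at 3.59 against 3.94 to 4.21 in the other 6. Chance flags about 1 in 20 groups, and 40 were examined.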

How the results depend on the processing

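The uninephrectomy rises of Cish and Irs2 in SBN/y and the Igf1 strain difference with 2 kidneys passed under all 11 alternatives. The Igf1 strain difference after uninephrectomy passed under every alternative that kept 7 arrays per group. All of these passed in all 28 fits without 1 array. The dim filter, the other variance model, the compared groups alone and the replicate block cannot move a log2 difference. They change only its spread or adjustment. For Cish the log2 difference ranged from 0.81 to 0.87 over the alternatives, and for Irs2 from 0.67 to 0.73. Of the 10 genes, the number past the threshold for uninephrectomy in SBH/y was 2, against 0 with the clock gene score as a covariate (2 at an unadjusted p under 0.05), 1 with the macrophage level and 0 without the 7 arrays of low clock score (1 at an unadjusted p under 0.05). For strain after uninephrectomy it was 3, against 1 without those 7 arrays. Leaving them out keeps 1 uninephrectomized SBH/y array, whose spread comes from the other groups, so calls lost there say nothing about stability. For strain with 2 kidneys it was 4, against 1 with the clock score and 1 with the macrophage level. For the interaction it was 1, against 0 with the clock score, 0 with the macrophage level and 0 without the 7 arrays (1, 3 and 2 at an unadjusted p under 0.05). Leaving out 1 array gave 1 to 2 for uninephrectomy in SBH/y, 2 to 2 in SBN/y, 3 to 4 for strain after uninephrectomy, 2 to 4 with 2 kidneys and 0 to 1 for the interaction. Igfbp1 turned sign with the macrophage level, to -0.0794 after uninephrectomy and -0.0715 with 2 kidneys; the cause was not tested. Deviations of same-numbered arrays of different groups correlated at -0.09 to 0.59 (median 0.16), against -0.51 to 0.37 (median -0.03) for different numbers, and 10 of 28 arrays correlated best with their own number, a hint from the data and not the design. Since the labels give no pairing and not every same-numbered pair correlated above 0, the numbers were not taken as one. With the replicate block, the calls among the 10 genes numbered 2, 2, 3, 4 and 1 as without it. Over all probe sets, calls for uninephrectomy in SBN/y numbered 144, against 280 with the replicate block, 60 with the compared groups alone, 225 with array weights and 86 without the 7 arrays. For the interaction they numbered 439, against 812 with the block, 899 with array weights, 0 with the clock score, 101 with the macrophage level and 1 without the 7 arrays. For uninephrectomy in SBH/y they numbered 2558, against 73, 1198 and 15 under the last 3. For strain they numbered 6663 and 5570, against 1108 and 1922 with the macrophage level, and 3916 with the clock score and 1199 without the 7 arrays after uninephrectomy. The fit of the compared groups alone was not run for the interaction.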
